A study of Rattus norvegicus with 60 samples.

Results

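The comparison described here set deltamethrin against permethrin at the 1 dose, 1 mg/kg, that rats received of both pyrethroid insecticides. It is the 1 pair of compounds in the series at a matched dose and time. It was made up of 16 of the 60 arrays of the series, chosen by compound and dose in the sample labels, and took in all 31042 probe sets. Frontal cerebrocortex came from adult male Long-Evans rats of postnatal days 62 to 64, killed 6 h after a single oral gavage in corn oil. The groups used were deltamethrin 1 mg/kg (8 rats), permethrin 1 mg/kg (8 rats), the other doses of deltamethrin (0.3 and 3 mg/kg) and of permethrin (10 and 100 mg/kg, 8 rats at each dose), and the corn oil vehicle (12 rats). The labels name no genetic change, and all rats received corn oil. RNA from each rat was hybridized to 1 array, and the values are log2 expression levels, so that a difference of 1 is a doubling. Equal mass per body weight is not an equal number of molecules. For deltamethrin this dose was the no-observed-adverse-effect level for motor behavior, while for permethrin it lay below that level.

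Pyrethroids act mainly on voltage-sensitive sodium channels, which carry the upstroke of the action potential, and slow their closing. Deltamethrin carries a cyano group on the carbon next to the ester oxygen and is of the type II class, while permethrin lacks this group and is of the type I class. Deltamethrin was dosed as a single isomer and permethrin as a mixture of isomers. Frontal cortex is a mixture of excitatory and inhibitory neurons, astrocytes, oligodendrocytes, microglia and vessel cells. In such bulk tissue fewer cells of a type and less RNA per cell cannot be told apart.

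The arrays fell into 2 sets on their first principal components, called array group A (24 arrays) and array group B (36 arrays) below. At 1 mg/kg each compound had 3 arrays in group A and 5 in group B, so the compounds were balanced over the sets. The study pooled a pair of cohorts dosed on separate days whose group sizes were those of these sets, but the labels do not say which array belongs to which cohort, so cohort and array group cannot be matched array by array here. The first component held 58.0% of the variance, and replicates 1 and 2 of each compound, all in group A, lay highest on it among the 16 arrays. On that component deltamethrin arrays ranged from -31.7 to 64.2 around a median of -9.63, and permethrin arrays from -33.0 to 90.1 around a median of -19.8 (exact permutation test, two-sided, p = 0.950).

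No probe set passed the threshold of 0.05 between deltamethrin and permethrin at 1 mg/kg after Benjamini-Hochberg adjustment over all 31042 probe sets (limma, 0 called, 0.00%, lowest adjusted p = 0.275). At an unadjusted limma p under 0.05 there were 847 probe sets (2.73%), of which 530 (1.71%) were higher and 317 (1.02%) lower after deltamethrin than after permethrin. With the arrays centered on their medians the same split was 598 higher and 190 lower. With the replicate number as a block no probe set was called either, and the unadjusted count was 1221 over 60 arrays and 2135 over the 16 arrays at 1 mg/kg. Differences were small, with a median size of 0.06 on the log2 scale. In all, 309 probe sets differed by more than 0.25, 189 of them higher and 120 lower after deltamethrin, and 15 by more than 0.5, of which 4 were higher and 11 lower. For 90.2% of probe sets the 95% interval of the difference lay wholly between -0.5 and 0.5. The ranges of the 8 and 8 rats were apart for 1 probe set that was higher (0.00322%) and 1 that was lower (0.00322%) after deltamethrin. The first was of Clasp1, and the second, with no gene symbol here, averaged 4.15 in deltamethrin rats and 4.23 in permethrin rats.

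The sign of the differences varied with the brightness of the probe sets. Among the brightest decile, the top 10% by mean level (3105 probe sets, mean log2 level above 9.98) the median difference was 0.09, and 91.5% of probe sets had a higher mean after deltamethrin than after permethrin. In this decile, 255 were higher and 2 were lower at an unadjusted p under 0.05. In deciles 2 to 5, counted from the dimmest and at levels from 4.93 to 7.17, the median difference was between -0.04 and -0.03. The mean of the brightest decile lay from 10.92 to 11.03 in the 8 deltamethrin rats (median 10.99), from 10.65 to 10.99 in the 8 permethrin rats (median 10.94) and from 10.88 to 11.05 in the 12 vehicle rats (median 10.95). Permethrin replicates 1 and 2, at 10.75 and 10.65, lay below every other array of these groups, and the other 6 permethrin rats overlapped the deltamethrin rats (exact permutation test, two-sided, p = 0.0541). The median difference of the brightest decile was 0.21 within array group A and 0.02 within array group B. It was 0.03 without the 4 arrays highest on the first component, which are replicates 1 and 2 of each compound, and 0.03 after a repeated quantile normalization. Without those 4 arrays 609 probe sets passed an unadjusted p under 0.05, 254 higher and 355 lower, so that the split turned. Of these, 104 were among the 530 higher and 157 among the 317 lower ones.

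**Figure D1:**
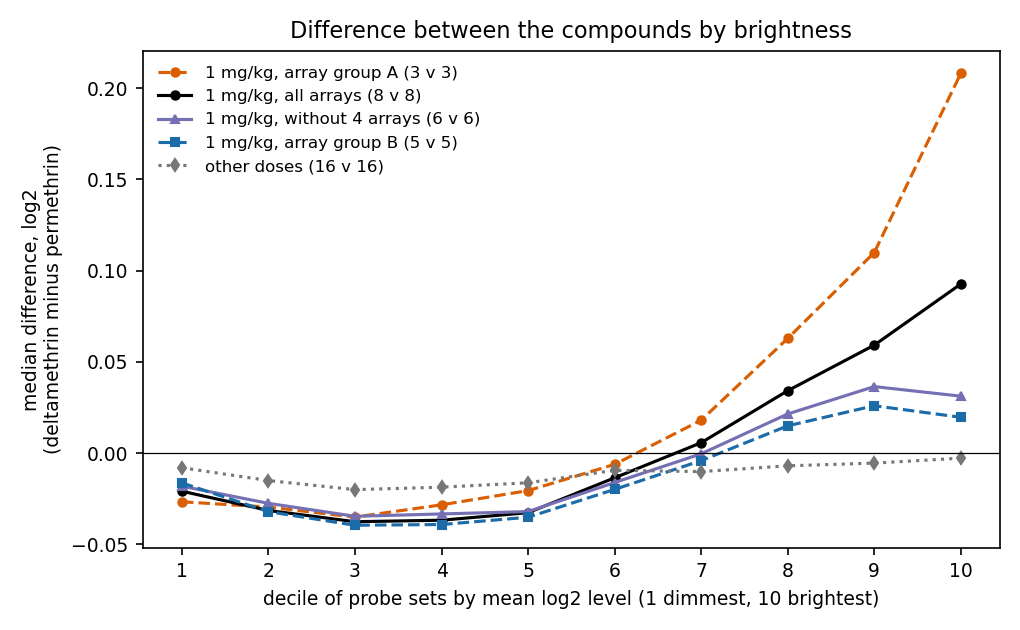
Median difference in log2 value, deltamethrin minus permethrin, in each decile of the probe sets ordered by mean log2 level, for 1 mg/kg with all 16 arrays, within each array group and without the 4 arrays highest on the first component, and for the other doses. In the brightest decile the median is 0.21 in array group A, 0.09 with all arrays, 0.03 without the 4 arrays and 0.02 in array group B, and -0.00 at the other doses.

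**Figure D2:**
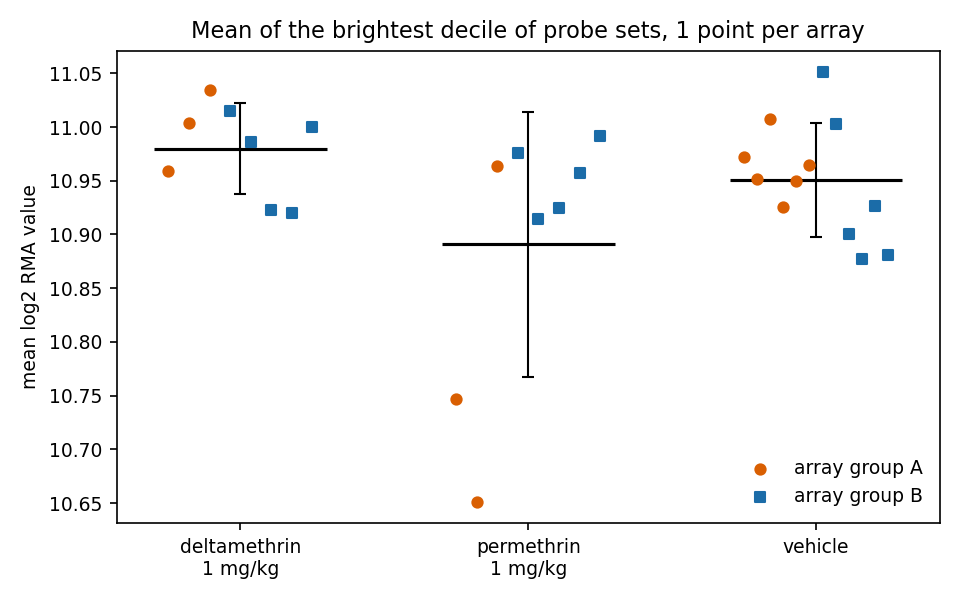
Mean log2 value of the brightest decile of probe sets, 1 point per array, for deltamethrin 1 mg/kg, permethrin 1 mg/kg and vehicle, with bars for the group mean and its SD. Permethrin replicates 1 and 2, of array group A, lie at 10.75 and 10.65, and the other 26 arrays lie between 10.88 and 11.05.

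The 12 genes with the lowest p among those higher after deltamethrin, given here by role and not by rank, included the mitochondrial outer membrane channel Vdac1, the synaptic vesicle chaperone Dnajc5, the vacuolar proton pump accessory subunit Atp6ap1, the neuropeptide amidating enzyme Pam, the sorting receptor Sort1, the dynein intermediate chain Dync1i1 and the microtubule plus-end protein Clasp1. The others were the caspase Casp8, the branched-chain aminotransferase Bcat1, the RNA-binding protein Celf5, the zinc finger protein Zfp532 and the frameshift inhibitor Shfl. Their differences lay between 0.17 and 0.22, and 10 of the 12 were in the brightest decile of probe sets. After repeated quantile normalization they lay between 0.09 and 0.22. None passed the adjusted threshold.

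Vdac1, which passes metabolites across the outer mitochondrial membrane, had the lowest p of all probe sets. It was chosen by that p, which favors small p-values for it in these rats. Its log2 level ran from 12.09 through a median of 12.18 to 12.25 in deltamethrin rats, from 11.75 through 11.99 to 12.12 in permethrin rats and from 11.92 through 12.06 to 12.24 in vehicle rats. All 8 deltamethrin rats lay above the permethrin mean, although the ranges overlapped, and vehicle rats overlapped both. The difference was 0.20 ± 0.04 (SE), a 1.15-fold ratio, with a 95% interval from 0.12 to 0.29 (limma, adjusted p = 0.275; exact permutation test, two-sided, p = 0.0014). It was 0.28 ± 0.07 in array group A and 0.16 ± 0.05 in array group B, 0.15 without the 4 arrays highest on the first component and 0.12 after repeated quantile normalization. A further probe set of Vdac1 differed by 0.15 ± 0.08. The related channels Vdac2 and Vdac3 differed by 0.09 ± 0.05 and 0.08 ± 0.12, and the adenine nucleotide carriers Slc25a4 and Slc25a5 by 0.12 ± 0.07 and 0.07 ± 0.05. Without the 4 arrays these were 0.01 for Vdac2, -0.03 for Vdac3, -0.01 for Slc25a4 and -0.03 for Slc25a5.

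Dnajc5, which keeps the release machinery of synaptic vesicles folded, ran from 11.79 through 11.98 to 12.02 in deltamethrin rats, from 11.49 through 11.83 to 11.89 in permethrin rats and from 11.77 through 11.87 to 11.94 in vehicle rats. Permethrin replicates 1 and 2 held its lowest values, 11.49 and 11.54, and the other 6 lay between 11.80 and 11.89. The difference was 0.19 ± 0.05, but 0.35 in array group A and 0.09 in array group B, 0.08 without the 4 arrays and 0.10 after repeated quantile normalization. Among the 12 genes the 2 lowest permethrin values were those of replicates 1 and 2 for 9. Pam, which amidates peptide hormones, differed by 0.43 ± 0.09 in group A and 0.08 ± 0.07 in group B, and its dim further probe sets by 0.00 ± 0.06 and -0.01 ± 0.06 over all arrays. For 11 of the 12 the difference was larger in group A than in group B, with values from 0.16 to 0.43 in group A and from 0.08 to 0.21 in group B.

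Clasp1, which stabilizes growing microtubule ends, was the 1 higher probe set whose ranges did not overlap. Clasp1 was named for its low p in these rats, which favors a small p in any test of them. It ran from 10.21 through 10.27 to 10.31 in deltamethrin rats, from 10.01 through 10.08 to 10.18 in permethrin rats and from 10.05 through 10.16 to 10.38 in vehicle rats, so vehicle rats overlapped both. The difference was 0.17 ± 0.05 (limma, adjusted p = 1.00; exact permutation test, two-sided, p = 0.000155, the smallest this design allows). Within the array groups it was 0.21 in A and 0.15 in B. A dimmer probe set of Clasp1 differed by 0.09 ± 0.07. Casp8, which starts the extrinsic cell death pathway, was the 1 gene of the 12 with a low level. Its level ran from 5.78 through 5.93 to 6.05 in deltamethrin rats, from 5.60 through 5.75 to 5.86 in permethrin rats and from 5.68 through 5.85 to 6.02 in vehicle rats. The difference of 0.20 ± 0.05 was 0.16 in group A and 0.21 in group B, and a second probe set of Casp8 differed by -0.08 ± 0.08. The dim further probe sets of Zfp532 differed by -0.02 ± 0.07 and -0.09 ± 0.08. Further probe sets differed by 0.09 ± 0.09 for Sort1, 0.25 ± 0.13 for Bcat1, and 0.17 ± 0.11 and 0.23 ± 0.09 for Dnajc5.

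**Figure D3:**
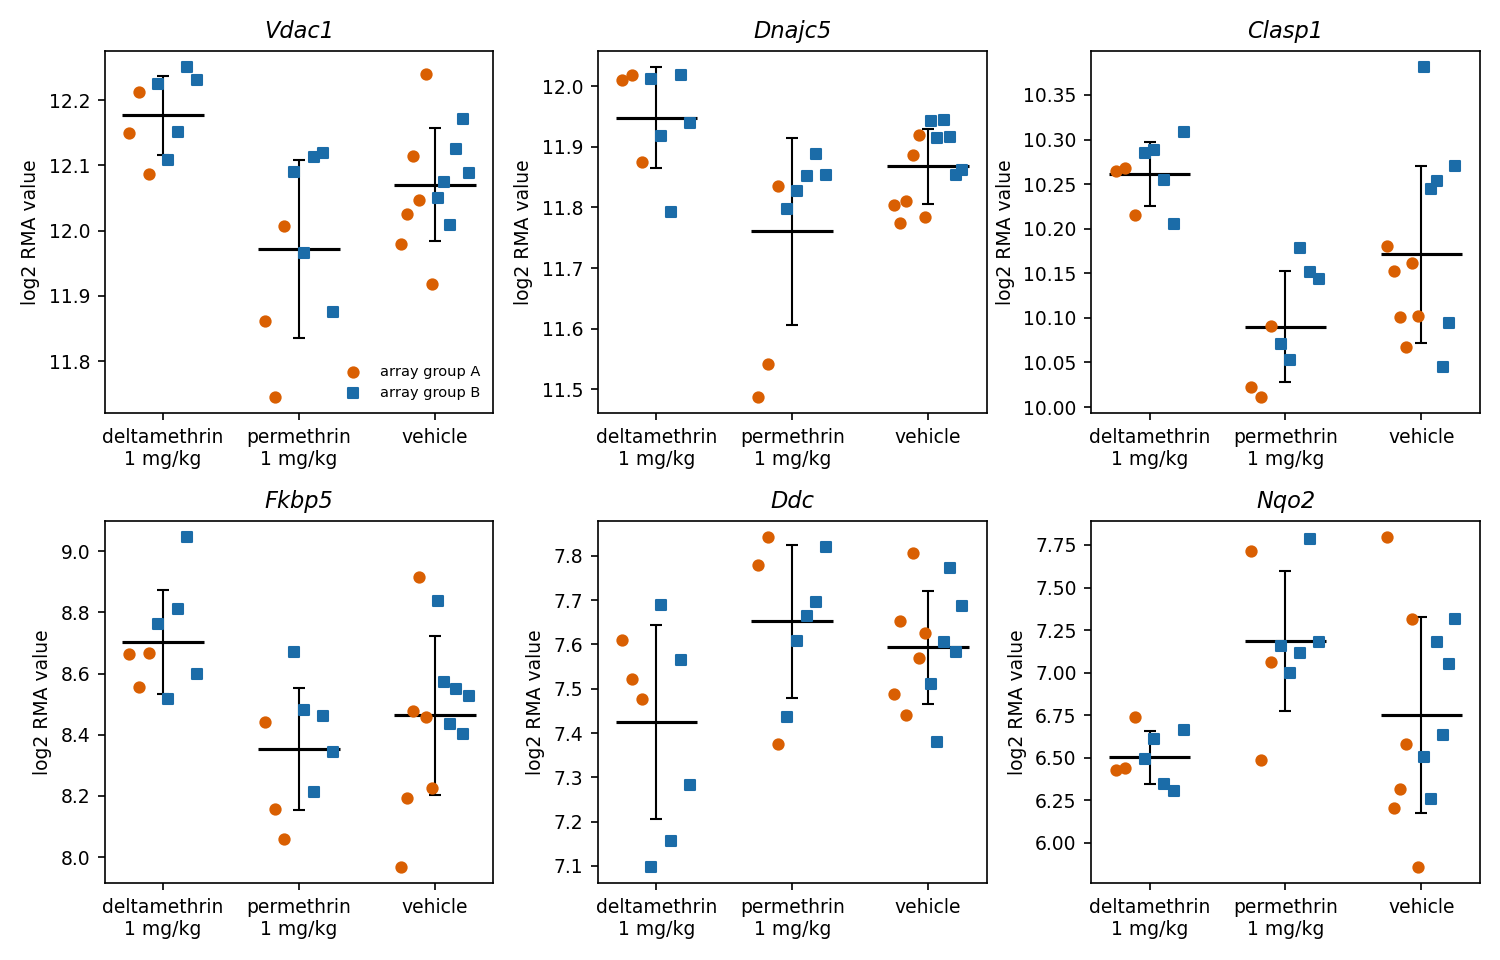
Log2 values of 6 genes in each rat of deltamethrin 1 mg/kg, permethrin 1 mg/kg and vehicle, with marker shape and color for the array group and bars for the group mean and its SD. Clasp1 shows no overlap between the compounds, Dnajc5 has its lowest values in permethrin replicates 1 and 2, and Nqo2 spans 6.30 to 6.74 after deltamethrin, 6.49 to 7.79 after permethrin and 5.86 to 7.80 in vehicle rats.

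The 12 genes with the lowest p among those lower after deltamethrin were mostly dim, with mean levels from 4.58 to 7.22. Among them were the melatonin-pathway acetyltransferase Aanat, the carnitine synthesis enzyme Tmlhe, the iron exporter Slc40a1, the transcription factor IID subunit Taf3, the quinone reductase Nqo2 and the cytochrome P450 Cyp2j10. The others were the kinase Mak, the lectin Zg16, the calpain Capn13, the fucosyltransferase Fut2 and the unnamed loci LOC102550366 and LOC102555451. None passed the adjusted threshold, and 11 of the 12 lay under the median level of all probe sets. Aanat ran from 5.53 through 5.70 to 5.80 in deltamethrin rats, from 5.70 through 5.93 to 6.05 in permethrin rats and from 5.57 through 5.75 to 6.06 in vehicle rats. Its difference was -0.23 ± 0.07, with -0.20 in array group A and -0.25 in array group B. Tmlhe differed by -0.23 ± 0.07, with -0.24 in group A and -0.23 in group B, and was lower in all 8 deltamethrin rats than the permethrin mean. Dim further probe sets of Taf3 differed by -0.01 ± 0.06 and 0.17 ± 0.11. That of LOC102555451 differed by -0.02 ± 0.13, and those of Fut2 by -0.13 ± 0.09 and -0.14 ± 0.08. Slc40a1 differed by -0.23 ± 0.07, and its other probe sets by -0.12 ± 0.07 and -0.04 ± 0.09. Without deltamethrin replicate 6, its lowest value at 6.54, the difference of Slc40a1 was -0.15. The 12 lower genes differed by -0.55 to -0.04 in array group A and by -0.77 to -0.09 in array group B, and by -0.69 to -0.08 without the 4 arrays highest on the first component.

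Nqo2, an enzyme that reduces quinones with unusual electron donors, had the widest difference of the 24 leading genes. It was named for its low p in these rats, which favors a small p in any test of them. Its level ran from 6.30 through 6.47 to 6.74 in deltamethrin rats, from 6.49 through 7.14 to 7.79 in permethrin rats and from 5.86 through 6.61 to 7.80 in vehicle rats. All 8 deltamethrin rats lay below the permethrin mean, and both groups lay within the vehicle range. The difference was -0.69 ± 0.24, a 0.622-fold ratio (limma, adjusted p = 1.00; exact permutation test, two-sided, p = 0.000777). The spread between rats was uneven, with an SD of 0.16 after deltamethrin 1 mg/kg, 0.41 after permethrin 1 mg/kg and 0.57 in vehicle rats. At the other doses the SD was 0.45 and 0.54 after deltamethrin 0.3 and 3 mg/kg, and 0.42 and 0.63 after permethrin 10 and 100 mg/kg.

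**Figure D4:**
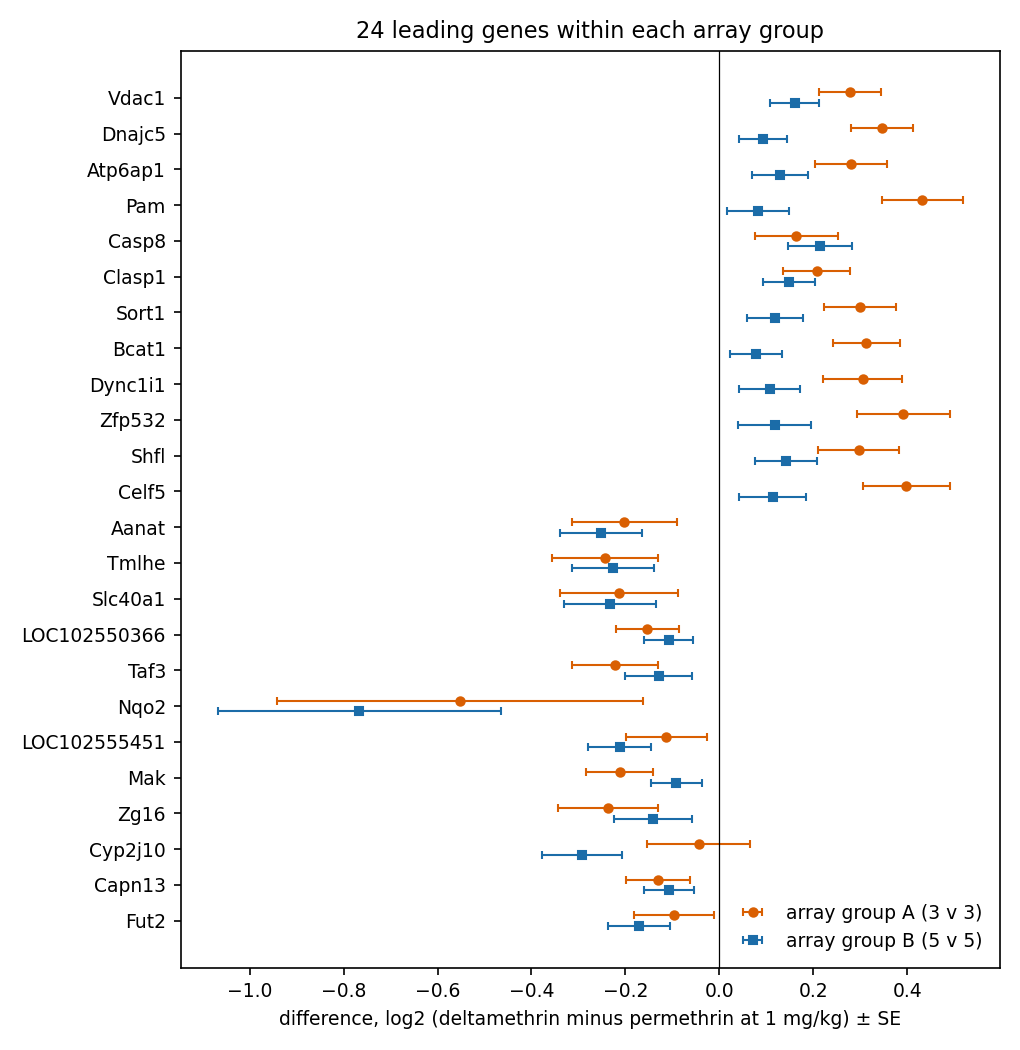
Difference in log2 value, deltamethrin minus permethrin at 1 mg/kg, with its SE, for the 12 higher and 12 lower genes of lowest p, within array group A (3 against 3 rats) and array group B (5 against 5). All 24 have the same sign in both array groups, a sign their choice favors, and 11 of the 12 higher genes have the larger difference in group A.

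Set against vehicle, the 24 leading genes lay on both sides of it. All 12 higher genes were above vehicle after deltamethrin (by 0.08 to 0.12) and below it after permethrin (by -0.13 to -0.06), and all 12 lower genes were below vehicle after deltamethrin (by -0.25 to -0.05) and above it after permethrin (by 0.01 to 0.44). These values share the vehicle rats, and the choice of genes on the direct comparison favors this order. Against vehicle, no probe set passed the adjusted threshold after either compound at 1 mg/kg (limma, 31042 tested). At an unadjusted p under 0.05 there were 695 probe sets (2.24%) for deltamethrin and 367 (1.18%) for permethrin. In the brightest decile the median difference from vehicle was 0.05 for deltamethrin and -0.06 for permethrin.

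The group means at the other doses did not enter the differences that chose these 24 genes, although the rats of those doses shared in the estimate of the spread and the doses of the compounds differ there. The contrast of deltamethrin 0.3 and 3 mg/kg with permethrin 10 and 100 mg/kg had no probe set past the adjusted threshold and 468 (1.51%) at an unadjusted p under 0.05. Of the 24 genes, 21 had the same sign in that contrast, 10 of the 12 higher and 11 of the 12 lower. The values were small, from -0.05 to 0.06 for the 12 higher genes and from -0.09 to 0.03 for the 12 lower genes, and 1 of the 24 had an unadjusted p under 0.05 (Vdac1, 0.06 ± 0.03). Over all probe sets the median of this contrast was -0.01, and in the brightest decile it was -0.00. In deciles 1 to 6, whose levels span those of the 12 lower genes, the median lay between -0.020 and -0.008. A lower mean after deltamethrin was thus the more common sign there.

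The study followed 9 genes by qRT-PCR, each given here by its brightest probe set. Of these, 6 had a higher and 3 a lower mean after deltamethrin, with a median difference of 0.13 beside -0.00 over all probe sets. That median was -0.06 within array group A and 0.17 within array group B. In decile 8 of brightness, which holds the median level of the 9 genes (8.58), 66.0% of all probe sets had a higher mean. At an unadjusted p under 0.05 there was 1 in each direction, Fkbp5 and Ddc, beside 1.71% of all probe sets higher and 1.02% lower. The study chose the 9 genes from these arrays for a response to dose, which favors differences between groups. Fkbp5, a chaperone of the glucocorticoid receptor that the hormone induces, ran from 8.52 through 8.67 to 9.05 in deltamethrin rats, from 8.06 through 8.39 to 8.67 in permethrin rats and from 7.97 through 8.47 to 8.92 in vehicle rats. All 8 deltamethrin rats lay above the permethrin mean. The difference was 0.35 ± 0.10, a 1.27-fold ratio with a 95% interval from 0.15 to 0.55 (limma, adjusted p = 1.00; exact permutation test, two-sided, p = 0.00171). It was 0.41 in array group A and 0.31 in array group B, 0.36 without the 4 arrays highest on the first component and 0.32 after repeated quantile normalization. A second probe set of Fkbp5 differed by 0.27 ± 0.13. Gpd1, the cytosolic glycerol phosphate dehydrogenase, ran from 8.73 through 9.54 to 10.04 in deltamethrin rats, from 8.56 through 8.99 to 9.60 in permethrin rats and from 8.37 through 8.85 to 9.95 in vehicle rats. Its difference was 0.43 ± 0.22, with an interval from -0.01 to 0.87, and 6 of 8 deltamethrin rats lay above the permethrin mean. Its second probe set differed by 0.32 ± 0.19.

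Ddc, the decarboxylase that makes dopamine and serotonin, was lower after deltamethrin in the means. It ran from 7.10 through 7.50 to 7.69 in deltamethrin rats, from 7.37 through 7.68 to 7.84 in permethrin rats and from 7.38 through 7.60 to 7.81 in vehicle rats. The difference was -0.23 ± 0.09 (exact permutation test, two-sided, p = 0.0375), with -0.13 in array group A and -0.29 in array group B, and 3 deltamethrin rats of group B lay below every permethrin and vehicle rat. A second probe set of Ddc differed by -0.14 ± 0.11. The immediate early gene Egr1 differed by 0.27 ± 0.16, with a range from 10.87 to 11.77 in deltamethrin rats, from 10.90 to 11.24 in permethrin rats and from 11.04 to 12.10 in vehicle rats. Its difference was 0.53 in group A and 0.11 in group B. Fos differed by -0.08 ± 0.09, the growth factor Bdnf by 0.27 ± 0.16, the small heat shock protein Hspb1 by 0.05 ± 0.16 and the kinase Camk1g by 0.13 ± 0.11. Further probe sets of Camk1g, Fos and Bdnf differed by 0.24 ± 0.18, 0.41 ± 0.35 and -0.02 ± 0.05, so that those of Fos and Bdnf had the opposite sign. The study reported Fos by that further probe set, while the brightest one is counted here. Rassf5 differed by -0.00 ± 0.09, with an interval from -0.18 to 0.17. The stress peptide Crh differed by 0.22 ± 0.11, with a median of 7.24 in deltamethrin rats and 7.03 in permethrin rats.

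Side by side with the other doses, the mean log2 level of Fkbp5 was 8.46 ± 0.26 in vehicle rats (SD, 12 rats), then 8.48 ± 0.14, 8.70 ± 0.17 and 8.96 ± 0.27 after deltamethrin 0.3, 1 and 3 mg/kg, and 8.35 ± 0.20, 8.56 ± 0.12 and 8.58 ± 0.18 after permethrin 1, 10 and 100 mg/kg (SD, 8 rats each). Ddc stood at 7.59 ± 0.13 in vehicle rats, with 7.53 ± 0.17, 7.43 ± 0.22 and 7.27 ± 0.15 after rising doses of deltamethrin and 7.65 ± 0.17, 7.60 ± 0.16 and 7.59 ± 0.21 after rising doses of permethrin. Gpd1 stood at 8.95 ± 0.48 in vehicle rats, deltamethrin from low to high dose gave 8.81 ± 0.35, 9.45 ± 0.51 and 9.94 ± 0.39, and permethrin gave 9.02 ± 0.38, 9.03 ± 0.35 and 9.16 ± 0.61. For these genes the mean after deltamethrin moved further from vehicle at each step above 0.3 mg/kg, while the means after permethrin stayed within 1 SD of vehicle. The study had picked Fkbp5, Gpd1 and Ddc from these arrays as dose-responsive to deltamethrin, and none was on its permethrin list. That choice favors this pattern and the p-values that follow. By qRT-PCR in other rats, the study found Ddc lower at the higher permethrin doses as well. There Gpd1 rose after permethrin in the time course but had no dose effect, and Fkbp5 had no dose effect of permethrin. In the contrast of the other doses the difference was 0.15 for Fkbp5 (limma, unadjusted p = 0.0405), -0.20 for Ddc (unadjusted p = 0.00208) and 0.28 for Gpd1 (unadjusted p = 0.079), and none passed the adjusted threshold. Vdac1 stood at 12.07 ± 0.09 in vehicle rats, while deltamethrin gave 12.10 ± 0.03, 12.18 ± 0.06 and 12.13 ± 0.04 and permethrin 11.97 ± 0.14, 12.05 ± 0.09 and 12.06 ± 0.04, so that its lowest mean was that of permethrin 1 mg/kg. Camk1g had higher means than the 9.15 ± 0.20 of vehicle rats at every dose of both compounds, from 9.30 to 9.54 after deltamethrin and from 9.28 to 9.47 after permethrin.

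**Figure D5:**
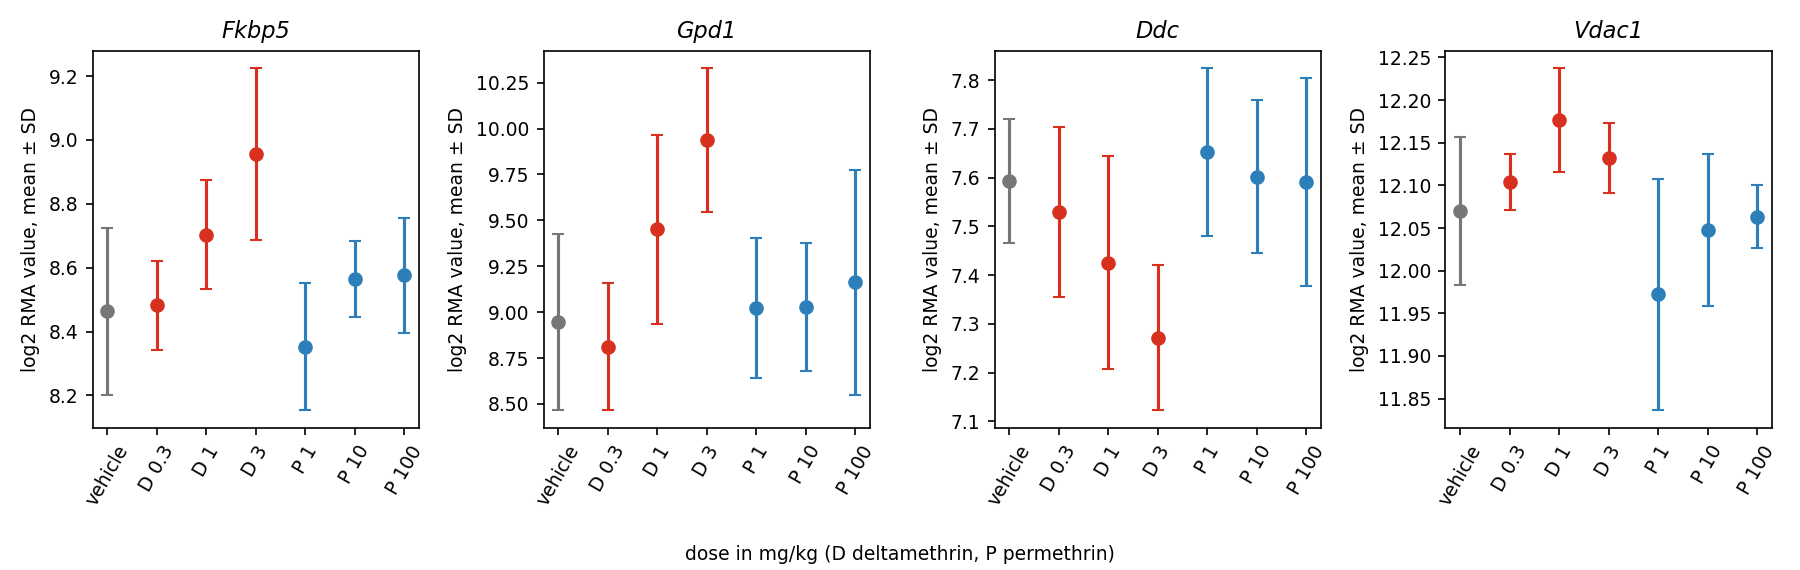
Mean log2 value with its SD for Fkbp5, Gpd1, Ddc and Vdac1 in vehicle rats (12) and at each dose of deltamethrin (D) and permethrin (P) (8 rats each). Fkbp5 reaches 8.70 and 8.96 after deltamethrin 1 and 3 mg/kg, against 8.46 in vehicle rats, and Vdac1 is lowest at 11.97 after permethrin 1 mg/kg.

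Among glucocorticoid-responsive genes, 15 of 19 measured members had a higher mean after deltamethrin and 4 a lower one, with 2 higher and 0 lower at an unadjusted p under 0.05, beside 1.71% and 1.02% of all probe sets. In decile 8 of brightness, which holds the list's median level of 8.58, 66.0% of all probe sets had a higher mean after deltamethrin. The list's median difference was 0.12, beside -0.00 over all probe sets. Besides Fkbp5 the member past that threshold was Tsc22d3, a hormone-induced leucine zipper protein, at 0.22 ± 0.10, which was 0.43 in array group A and 0.09 in array group B. The list median was 0.18 in group A, 0.06 in group B, 0.15 without the 4 arrays and 0.05 without permethrin replicate 3. The study had measured several of these genes in these rats, so the list is not independent evidence of its direction. Circadian clock genes had a median of 0.11 (10 of 17 higher, none past an unadjusted p of 0.05), with the lowest p for Tef at 0.14 ± 0.08 and the widest difference for Bhlhe40 at 0.40 ± 0.23. That median was 0.05 without permethrin replicate 3, and the median level of the clock genes, 9.02, also lies in decile 8. Immediate early genes, which neurons switch on when they fire, had a median of 0.06 (15 of 23 higher, none past that threshold). Their median level of 7.54 lies in decile 6, where 42.3% of all probe sets were higher. Both compounds lay below vehicle for this list, with a median of -0.07 after deltamethrin and -0.14 after permethrin.

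The channel and receptor lists given next showed no member past the adjusted threshold. Of these, the study names sodium channels as the main target of pyrethroids, and calcium and chloride channels as possible further ones. Voltage-gated sodium channel genes were higher after deltamethrin for 6 of 9 and lower for 3, with a median of 0.03, and none passed an unadjusted p of 0.05. By p the first was Scn2b, a beta subunit, at 0.16 ± 0.09, and by size Scn3b, another beta subunit, at 0.21 ± 0.13. Voltage-gated calcium channel genes had a median of 0.07 (11 of 17 higher, none past that threshold), with Cacna1c at 0.12 ± 0.06. Chloride channels and chloride cotransporters had a median of 0.07 (8 of 11 higher), and Clic4 passed the unadjusted threshold at 0.20 ± 0.08, where permethrin replicate 2 lay lowest at 9.35. GABA receptor subunits had a median of -0.05 (4 of 11 higher) and ionotropic glutamate receptor subunits one of 0.01 (8 of 15 higher), which was -0.02 after repeated quantile normalization. Gabbr1, at 0.10 ± 0.06, and Grik3, at -0.12 ± 0.07, had the lowest p of these receptors. By median level, calcium channels lay in decile 8 of brightness (66.0% of all probe sets higher, median 0.03). The other lists of this paragraph lay in decile 9 (79.3%, median 0.06). At an unadjusted p under 0.05, 1.71% of all probe sets were higher. Without the 4 arrays highest on the first component the medians were -0.01 for sodium channels, -0.01 for calcium channels, -0.12 for GABA receptors and -0.05 for glutamate receptors. Without 1 rat the sodium channel median ranged from -0.05 to 0.15 and was below 0 in 4 of 16 fits. The GABA receptor median ranged from -0.08 to 0.08, and was above 0 without deltamethrin replicate 1.

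The 7 gene groups given next, of high mean level, had positive medians. In the brightest decile the median was 0.09, and 91.5% of all probe sets had a higher mean after deltamethrin. In decile 9, which holds the median level of the heat shock proteins (9.78), these values were 0.06 and 79.3%. Not every bright group leaned this way: oligodendrocyte markers, at a median level of 11.2, had a median of -0.01 (4 of 9 higher). At an unadjusted p under 0.05, 255 of the 3105 probe sets of the brightest decile were higher and 2 lower. Genes of the sodium pump and calcium clearance had a median of 0.11 (9 of 11 higher), and the calcium pump Atp2b2 passed an unadjusted p of 0.05 at 0.17 ± 0.08. Synaptic vesicle release genes had a median of 0.08 (15 of 18 higher), with Vamp1 at 0.20 ± 0.07 and Cplx1 at 0.11 ± 0.04 past that threshold. The mitochondrial anion channels and carriers had a median of 0.09 (13 of 15 higher). Besides Vdac1 the import receptor Tomm22 (0.14 ± 0.05) and the phosphate carrier Slc25a3 (0.10 ± 0.04) passed it. The respiratory chain had a median of 0.06 (46 of 53 higher, 1 past the threshold, Ndufa8 at 0.12 ± 0.05), which was -0.00 after repeated quantile normalization. Cytosolic ribosomal proteins had a median of 0.09 (33 of 36 higher, none higher past the threshold, and Rpl30, at a low level, lower by -0.12 ± 0.06). The calmodulin-dependent kinases had a median of 0.08 (10 of 13 higher), with Camk2b at 0.13 ± 0.05, and heat shock proteins one of 0.05 (14 of 17 higher), with Hsp90ab1 at 0.17 ± 0.07. Within array group A the medians of these 7 groups lay from 0.15 to 0.32, and within array group B from -0.02 to 0.01. After repeated quantile normalization they lay from -0.00 to 0.05, that of synaptic vesicle release at 0.01, and without the 4 arrays from -0.02 to 0.05, with synaptic vesicle release at -0.00.

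Monoamine synthesis and breakdown had a median of -0.04 (4 of 12 higher), and besides Ddc the dopamine transporter Slc6a3 passed an unadjusted p of 0.05 at -0.14 ± 0.07. Xenobiotic metabolism genes had a median of -0.01 (10 of 24 higher, none past that threshold), with Gclc at 0.09 ± 0.07. Genes of branching morphogenesis had a median of 0.04 (22 of 31 higher). Of these, Timp3, an inhibitor of matrix proteases, differed by 0.27 ± 0.09 and the growth factor Gdnf by -0.13 ± 0.07. Splicing and nuclear RNA genes had a median of 0.08 (24 of 30 higher), with Luc7l at 0.16 ± 0.08 and a dim probe set of Srsf3 at -0.16 ± 0.07, and a median of -0.03 without the 4 arrays. The splicing median was also below 0, at -0.03 and -0.09, without permethrin replicate 1 or 2 alone. By median level, monoamine genes lay in decile 5 of brightness (33.8% of all probe sets higher, median -0.03). Xenobiotic genes lay in decile 6 (42.3%), branching genes in decile 8 (66.0%) and splicing genes in decile 9 (79.3%). At an unadjusted p under 0.05, 1.71% of all probe sets were higher and 1.02% lower.

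Cell type markers showed no list in which members passed the adjusted threshold. Excitatory neuron markers averaged from 9.64 to 10.26 in deltamethrin rats, from 9.55 to 10.22 in permethrin rats and from 9.61 to 10.22 in vehicle rats. Neuronal markers were thus at like levels in all groups, and striatal markers were present too, averaging from 9.49 to 9.98 in deltamethrin rats and from 9.56 to 10.02 in permethrin rats. The median differences were 0.06 for excitatory neurons (8 of 9 higher), 0.06 for inhibitory neurons (8 of 9 higher), 0.06 for striatal neurons (7 of 10), 0.07 for astrocytes (7 of 9) and 0.07 for meninges and fibroblasts (7 of 10). They were -0.01 for oligodendrocytes (4 of 9), 0.02 for their precursors (3 of 5), 0.01 for microglia (5 of 10), 0.00 for endothelial and mural cells (5 of 10), -0.06 for choroid plexus (1 of 9) and -0.04 for blood cells (2 of 8). After repeated quantile normalization the medians of precursors, microglia and vessel cells were -0.04, -0.01 and -0.04, and that of oligodendrocytes was -0.11. Those of excitatory, inhibitory and striatal neurons, astrocytes and meninges were 0.02, 0.01, 0.00, 0.01 and 0.03. By median level, excitatory markers lay in decile 8 (66.0% of all probe sets higher) and striatal and meninges markers in decile 9 (79.3%). Inhibitory, astrocyte and oligodendrocyte markers lay in the brightest decile (91.5%). Precursor markers lay in decile 9, vessel markers in decile 8 and microglia markers in decile 7 (52.2%). Choroid plexus and blood cell markers lay in decile 5 (33.8%, median -0.03). Choroid plexus markers averaged from 7.10 to 7.38 in deltamethrin rats, from 7.13 to 7.69 in permethrin rats and from 7.12 to 8.38 in vehicle rats, so the compounds overlapped. Ttr, the thyroid hormone carrier made by choroid plexus, had the lowest difference of all probe sets at -0.82 ± 0.82, with an interval from -2.46 to 0.81. It ran from 7.57 through 7.90 to 9.37 in deltamethrin rats, from 7.68 through 8.47 to 11.33 in permethrin rats and from 7.48 through 8.18 to 13.56 in vehicle rats, so all groups overlapped. Gfap, the astrocyte intermediate filament, differed by 0.19 ± 0.09 and Ctss, a microglial protease, by 0.17 ± 0.07, both past an unadjusted p of 0.05 and both bright. Gad1, Pde10a, Camk2a, Mgp and Pdgfra, the lowest in p of other lists that leaned higher, differed by 0.22 ± 0.13, 0.20 ± 0.11, 0.31 ± 0.27, 0.15 ± 0.13 and 0.09 ± 0.11. Without 1 rat these were as low as 0.12 for Gad1 and 0.12 for Pde10a (permethrin replicate 2), 0.13 for Camk2a (permethrin replicate 8), 0.04 for Mgp (permethrin replicate 3) and -0.01 for Pdgfra (permethrin replicate 2). Mog, Rgs5, Prlr and Ptprc, likewise of lists that leaned lower or near 0, differed by -0.13 ± 0.10, -0.14 ± 0.13, -0.13 ± 0.07 and -0.07 ± 0.05. The part of cell composition in the compound difference was not tested.

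Within array group A alone, with 3 rats of each compound, 85 probe sets (0.274%) passed the adjusted threshold, 78 of them higher and 7 lower after deltamethrin. Their median level was 11.2, beside 7.17 over all probe sets. The spectrin Sptan1, Dnajc5, the clathrin light chain Clta, the vesicle GTPase Rab31 and the autophagy protein Gabarapl1 were among those higher, by 0.30, 0.35, 0.33, 0.39 and 0.35 on the log2 scale. In array group B, with 5 rats of each compound, the same genes differed by 0.00, 0.09, 0.04, 0.02 and 0.06. Over the 85 probe sets the median difference was 0.37 in group A and 0.03 in group B, 56 had the same sign in group B and 1, that of Vdac1, had an unadjusted p under 0.05 there. These genes were named after their values were seen. The difference between the array groups itself, tested as an interaction, was called for 1 probe set of the 31042, a probe set with no gene symbol here (limma, adjusted p = 0.0335). It read 11.24, 11.21 and 9.24 in permethrin replicates 1 to 3, against 8.83, 8.54 and 8.45 in deltamethrin replicates 1 to 3, and in group B it lay from 8.31 to 8.58 after deltamethrin and from 7.58 to 8.44 after permethrin. Permethrin replicates 1 and 2 were thus the highest of the 16 arrays for this probe set and the lowest for the brightest decile, and whether these features are linked was not tested.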

How the data were processed

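The authors deposited log2 values made with RMA (background correction, quantile normalization and summary per probe set of the Rat Genome 230 2.0 array), 1 array per rat. The precision is limited by the number of arrays, since an array has no depth in reads. Groups came from the sample labels. Gene symbols came from the platform annotation: 20826 probe sets had 1 symbol, 436 had several and 9780 had none. The test was limma 3.58.1 (R 4.3.3), lmFit and eBayes over all 60 arrays and 7 groups without covariates, two-sided, with Benjamini-Hochberg adjustment over 31042 probe sets and a threshold of 0.05. Single genes were also tested by an exact permutation of the 16 rats. Errors of differences are the SE of the fit.

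Array groups A and B came from k-means with 2 clusters on the first 2 scaled principal components, and 3 to 6 components gave the same sets. Same-numbered rats of the compounds deviated together (correlations from 0.375 to 0.852 over probe sets), which meets the limit of 0.1 set for pairing. The same number was the best match for 4 of 8, the array groups coincide with replicates 1 to 3 against 4 to 8, and the labels do not say what a number marks.

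Named genes were the 12 higher and 12 lower genes with the lowest p (1 probe set per gene), the qRT-PCR genes and Crh, the Vdac and adenine nucleotide carrier genes, and the lowest-p members of each gene list by the brightest probe set, of which those past an unadjusted p of 0.05, or else the first, are given. Members and lists were chosen with earlier results of these data known. The fit was tested on simulated data. Alternatives took other arrays, covariates, normalizations, scales, weights and filters.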

Additional observations from a re-analysis of the deposited data

Results flagged for a closer look

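Over 148 sets of 8 rats, of genes and of array measures, the gap to the nearest neighbor was tested. In 7 sets of genes and 1 of the second principal component, 1 rat stood apart, and chance alone marks about 1 in 20. Deltamethrin replicate 6 was low for Slc40a1 (6.54, the other 7 from 6.95 to 7.26) and for Camk2b (12.31, others from 12.48 to 12.62), and deltamethrin replicate 7 for Gclc (8.60, others from 8.88 to 9.02). Permethrin replicate 2 was high for Camk1g (10.04, others from 9.11 to 9.49) and low for Vdac2 (11.94, others from 12.18 to 12.33) and Clic4 (9.35, others from 9.79 to 10.11). Permethrin replicate 3 was low for Mgp (8.99, others from 9.64 to 10.07). On the second principal component 1 permethrin array of group A, replicate 3, stood apart at 30.9, and deltamethrin replicate 3 lay at 31.0.

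The compound difference of 1 probe set with no gene symbol here was unlike in the 2 array groups by a test of the interaction. It was -1.95 ± 0.33 in group A and 0.39 ± 0.26 in group B, which differ by -2.34 ± 0.42 (SE; limma, adjusted p = 0.0335).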

How the results depend on the processing

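The count of probe sets between the compounds at an adjusted p under 0.05, 0 in the fit reported, was 85 within array group A, 20 with array weights and 1 (Arhgef18, 0.25) with the array group as a block and the first component together, an alternative chosen after seeing the data. It was 0 in the other alternatives and in all 16 fits without 1 rat. At an unadjusted p under 0.05 the 847 probe sets became 1397 with the array group as a block, 2335 within array group A, 2135 with the replicate block over the 16 arrays, 2321 with the first component as a covariate, 552 after repeated quantile normalization, 448 among the brighter 15636 probe sets, 4331 with array weights and 3207 with block and component. Without 1 rat they were 672 to 1247. The split of higher and lower turned to 413 and 507 without deltamethrin replicate 1, to 555 and 692 without deltamethrin replicate 7 and to 605 and 633 without permethrin replicate 3. The replicate block over 60 arrays gave 1221, and replicate pairing changed no call. The higher and lower counts were 1162 and 3169 with array weights, 309 and 243 after quantile normalization and 268 and 544 within array group B. The median of the brightest decile, 0.09, was 0.21 within array group A, and 0.07 to 0.11 without 1 rat. The interaction was called for 4 probe sets with the first component as a covariate. The fits without the 4 arrays, the decile and list medians and the array group block outside 1 mg/kg were also chosen after seeing the data. The array group as a block left the comparisons with vehicle and the other doses at 0 calls.

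Of 71 named genes the 24 leading ones kept their sign in every alternative run. Their choice on these rats favors this. Several alternatives, such as the array group as a block, change only the error and leave the difference as it was. Of the 71, Casp8, Fut2 and LOC102555451 passed the adjusted threshold with array weights. Vdac1, Dnajc5, Pam, Bcat1, Celf5, Vdac2 and Hsp90ab1 passed it within array group A. Those among the 24 were chosen for their low p in these rats, which favors such calls. Signs turned within array group A for Camk1g (-0.0587), Hspb1 (-0.177) and Mog (0.00606). Within array group B they turned for Rassf5 (0.0296), Vdac2 (-0.0239), Vdac3 (-0.0144), Slc25a5 (-0.0486), Pdgfra (-0.0312) and Gclc (-0.00385). Without the 4 arrays highest on the first component they turned for Vdac3 (-0.0343), Slc25a4 (-0.0125), Slc25a5 (-0.0294), Pdgfra (-0.0121) and Gclc (-0.000516). They turned with array weights for Rassf5 (0.0157), Slc25a5 (-0.00164) and Camk2a (-0.00324), and with median centering for Rassf5 (0.00632). Without 1 rat the range was -0.0228 to 0.154 for Hspb1 (turned without permethrin replicate 3), -0.0651 to 0.0366 for Rassf5 (turned in 7 of 16 fits), and, both turned without permethrin replicate 2, -0.0281 to 0.129 for Vdac3 and -0.00653 to 0.144 for Pdgfra. The cause of these turns was not tested.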
